A study of Mus musculus with 35 samples.

Results

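Livers of 2-month-old mice that lacked both E2f7 and E2f8 were compared directly with livers of the same age that lacked E2f8 alone, over 18193 genes. The comparison used 8 of the series' 35 arrays, 4 per genotype, chosen by their labelled genotype and age, and asks what the loss of E2f7 adds in a liver already without E2f8. Liver RNA was hybridised to Affymetrix mouse expression arrays, and each gene's level is a log2 signal, so that a difference of 1 is a doubling. The double knockout carried Albumin-Cre with E2f7loxp/loxp and E2f8loxp/loxp alleles, and the E2f8 knockout carried Albumin-Cre with E2f8loxp/loxp only. Both were on the FVB background, so that Cre, the E2f8 deletion, age and strain were shared and the E2f7 allele differed. Set beside them were 4 arrays of Albumin-Cre E2f7loxp/loxp livers and 3 arrays of wild-type FVB livers at 2 months, and 4 arrays each of the double and the E2f8 knockout at 3 weeks. The albumin promoter drives Cre in hepatocytes, and whether other cells of the liver keep both genes was not tested. The labels number the arrays of a genotype and do not say that each is a separate animal. P-values then measure only the spread between arrays, which the limma fit pools within groups over all 35 arrays of the series. The labels do not give the sex of the mice either, so that sex may differ between the groups.

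E2f7 and E2f8 are the atypical members of the E2F family: they bind DNA without a DP partner and repress genes that the activator E2Fs switch on for DNA replication and cell division. They can stand in for each other, and in liver they are known for their part in the switch of hepatocytes to polyploidy. E2F proteins recognise short GC-rich motifs near the start of their target genes.

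The 8 arrays correlated with each other across genes at r = 0.9924 to 0.9973. RNA degradation, read from how far 3′ control probes exceeded 5′ ones, was 1.04 ± 0.09 (SD, n = 4) in the double and 1.05 ± 0.04 in the E2f8 knockout (two-sided exact permutation test, p = 0.857, with 0.0286 the smallest p that 70 splits allow). The hepatocyte markers were at a mean log2 signal of 13.99 to 14.06 in the double and 13.95 to 13.99 in the E2f8 knockout, as the labelled tissue has it. Acinar pancreas and erythroid markers had medians of -0.01 and 0.03 for the difference.

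The targeted genes did not separate the genotypes by their own signal. E2f7 was at a log2 signal of 5.25, 5.39, 5.50 and 5.35 in the double and at 5.18, 5.84, 5.42 and 5.03 in the E2f8 knockout, a difference of 0.01 (SE 0.14, limma adjusted p = 0.998). The groups overlapped, and the means of the E2f7 knockout and wild type were 5.43 and 5.61. E2f8 was at 9.42, 9.45, 8.07 and 10.10 in the double and at 9.65, 10.01, 10.56 and 10.30 in the E2f8 knockout, a difference of -0.87 (SE 0.32, limma adjusted p = 0.297), with overlapping arrays. The deleted genotypes were above the wild-type mean of 7.92 for E2f8, so that its probe set does not report the deletion. Whether the probe sets of either gene lie outside the deleted part was not tested, and the genotypes rest on the labels. The predicted transcript Gm2788 lay between 6.21 and 6.66 in all 8 arrays, against means of 9.25 in the E2f7 knockout and 9.85 in wild type. The other E2f genes, E2f1 to E2f6, differed by -0.02 to 0.11 and none was called.

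After Benjamini-Hochberg adjustment of the limma test over all genes, 116 genes (0.638% of those tested) were called at an adjusted p under 0.05. Of these, 67 rose (0.368%) and 49 fell (0.269%) in the double knockout relative to the E2f8 knockout. Their sizes ran from 0.29 to 3.12 on the log2 scale, with medians of 0.58 for the rises and -0.74 for the falls, and 26 differed by at least 1. The differences of all genes had a median near 0 (-0.002), and 49.3% were above 0. In 106 of the 116 genes, 60 rises and 46 falls, the 4 arrays of one genotype all lay beyond the 4 of the other, which 8.13% of all genes did. An unadjusted p under 0.05 was reached by 1667 genes (9.16%). The largest rises included the acute phase genes Saa1 and Saa2, the fasting gene Igfbp1 and the transcription factor Junb. The largest falls included the thioesterase Acot3, the succinate receptor Sucnr1 and the cytochromes Cyp26a1 and Cyp2c38. The cell cycle lists held 1 called gene, Ccne1.

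**Figure D1:**
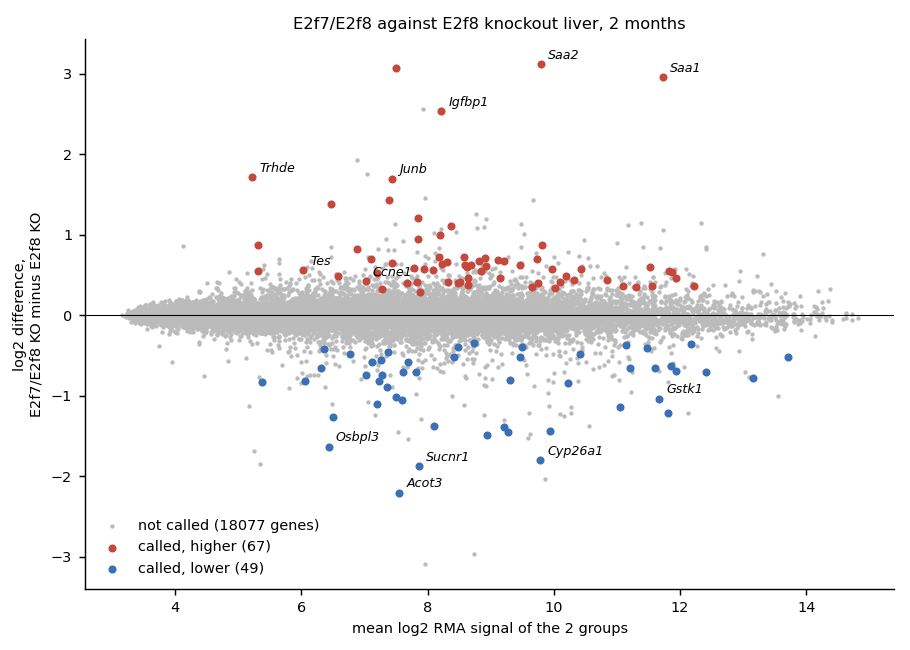
The log2 difference of each of the 18193 genes (E2f7/E2f8 minus E2f8 knockout, 2 months) is plotted against its mean log2 signal over both groups; red points are the 67 called rises, blue the 49 called falls and grey the genes not called. Saa2 and Saa1 lie at 3.12 and 2.96, and Acot3 at -2.20 is the called fall of largest size.

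The number of calls moved with single arrays. Leaving out replicate 4 of the E2f8 knockout gave 14 calls, replicate 1 of the double knockout 35, replicate 3 of the double knockout 50, replicate 1 of the E2f8 knockout 63 and replicate 2 of the E2f8 knockout 74. Of the 35 called genes among the 76 chosen for description, 9 stayed called whichever of the 8 arrays was left out: Saa1, Trhde, Pim1, Osbpl3, Cyp2c54, Hsd17b6, Akr1b8, Tes and Gstk1. None of the 35 changed direction. The other 26 lost their call without at least 1 array, 16 of them in at least 4 of the 8 fits. With all arrays but no term for the normalization run, 14 of the 35 missed the threshold, and in a fit of only the groups compared 6 did.

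Among called rises whose arrays did not overlap, the largest were in the serum amyloid A genes, which encode small apolipoproteins secreted by hepatocytes in the acute phase response to inflammatory cytokines. Saa1 was at a log2 signal of 13.89, 13.25, 13.41 and 12.30 in the double knockout and at 10.07, 10.32, 10.55 and 10.05 in the E2f8 knockout. The groups were far apart: the lowest double knockout array was above every E2f8 knockout array. The difference of 2.96 (SE 0.50, limma adjusted p = 0.00401) is 7.80-fold. Saa2 was at 12.82, 11.40, 11.57 and 9.63 against 7.84, 8.42, 8.69 and 7.99, a difference of 3.12 (SE 0.73, limma adjusted p = 0.0335). The Saa2 call was lost without any one of the other 7 arrays and kept without replicate 4 of the double knockout, with adjusted p from 0.0112 to 0.171. Wild-type arrays did not hold one level of Saa1, at 14.01, 13.88 and 10.82.

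Both genes lie on chromosome 7, 2.12 Mb (Saa1) and 2.11 Mb (Saa2) from E2f8, and their promoters are near copies, which is why they are shown. The windows, from RefSeq on GRCm38.p6, span 250 bases before to 50 bases after the start, chr7:46742931-46743230 (minus strand) for Saa1 and chr7:46751583-46751882 (plus strand) for Saa2. Aligned, 287 of 301 positions were identical (95.3%). The Saa2 probe set and the second of the Saa1 probe sets are of types that can match several transcripts, so that the signals of these paralogs are uncertain as separate measurements.
Saa1: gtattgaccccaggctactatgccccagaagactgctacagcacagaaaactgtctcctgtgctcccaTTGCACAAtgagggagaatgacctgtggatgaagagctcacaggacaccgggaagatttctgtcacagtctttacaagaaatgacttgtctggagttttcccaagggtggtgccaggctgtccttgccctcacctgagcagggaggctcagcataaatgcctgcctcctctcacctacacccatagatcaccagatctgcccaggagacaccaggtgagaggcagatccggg
Saa2: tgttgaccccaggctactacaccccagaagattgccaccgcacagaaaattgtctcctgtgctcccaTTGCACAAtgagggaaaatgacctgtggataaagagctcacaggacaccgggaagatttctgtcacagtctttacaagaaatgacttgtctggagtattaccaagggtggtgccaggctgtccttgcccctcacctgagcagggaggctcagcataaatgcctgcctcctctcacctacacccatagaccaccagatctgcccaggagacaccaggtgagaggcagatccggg
Capitals mark TTGCACAA, a motif of the C/EBP type, 182 bases before the start of Saa1 and 183 before that of Saa2, on the gene's strand. It was the second of 2 motifs searched here, both picked after the expression values were seen and the second also after the windows had been read. The first, the kappa B motif GGACTTTCC, had no match in either window. On both strands, TTGCACAA was in the windows of 3 of 49 called rises (6.12%), 1 of 40 called falls (2.5%), 3 of 22 acute phase genes (13.6%) and 132 of 14452 tested genes (0.913%). GGACTTTCC was in 0 of the 49, 0 of the 40, 0 of the 22 and 0.498% of tested genes. A match is a description of the letters and not of a bound site, and the choice of the motif allows no test.

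Of 25 acute phase genes, 22 had a difference above 0, with a median of 0.29, and 2 passed the limma test over all genes, Saa1 and Saa2. Lcn2, an iron-scavenging lipocalin, was at 11.01, 9.29, 9.03 and 7.50 in the double knockout against 6.44, 6.74, 6.96 and 6.44, a difference of 2.56 (SE 0.73) that missed the threshold at an adjusted p of 0.106. Orm2, an orosomucoid, was at 9.45, 7.58, 7.83 and 6.53 against 5.95, 5.98, 5.75 and 6.01, a difference of 1.93 (adjusted p = 0.106). For both genes the groups did not overlap, and replicate 1 of the double knockout was the highest array and replicate 4 the lowest of its group. Hp, the haemoglobin scavenger haptoglobin, differed by 0.33 (adjusted p = 0.0925) and Lbp, the lipopolysaccharide-binding protein, by 0.93 (adjusted p = 0.106). The fibrinogen chains Fga, Fgb and Fgg differed by 0.12, 0.11 and 0.11, and Hamp, the iron hormone hepcidin, by -0.26 (adjusted p = 0.96). The list's mean signal ran from 11.50 to 12.52 in the double and from 11.25 to 11.33 in the E2f8 knockout, without overlap, and from 11.28 to 12.61 in wild type.

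Markers of inflammatory cells were mostly above 0 as well. All 9 Kupffer cell and macrophage markers had a difference above 0, with a median of 0.31 and 0 called, and the log2 of their summed signal ran from 12.45 to 12.81 in the double, from 12.04 to 12.56 in the E2f8 knockout and from 12.80 to 13.17 in wild type. Of 4 neutrophil markers 3 were above 0, with a median of 0.33 and 0 called; their summed signal was 7.89 to 8.36 in the double and 7.60 to 7.79 in the E2f8 knockout. Of 6 lymphocyte markers 4 were above 0, with a median of 0.06. Their part in the acute phase and interferon results was not tested. In RNA of a whole liver, fewer cells of a type and less RNA per cell cannot be told apart.

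The list of interferon-stimulated genes gave 3 calls, all rises, among 27 measured members, of which 22 were above 0 (median 0.27). Usp18, which removes the ubiquitin-like modifier ISG15 and dampens interferon signalling, was at 8.04, 8.58, 8.54 and 7.22 in the double knockout against 6.52, 7.41, 6.44 and 6.31, a difference of 1.43 (SE 0.31, limma adjusted p = 0.0178). Replicate 4 of the double knockout lay below replicate 2 of the E2f8 knockout, so that the groups overlapped. Oas1a, a sensor of double-stranded RNA, rose by 0.58 (limma adjusted p = 0.0426) and Mx2, an antiviral GTPase, by 0.40 (adjusted p = 0.0352), each with 1 pair of arrays out of order. With an array left out, Usp18 and Oas1a lost their call in 6 of the 8 fits (adjusted p up to 0.109 and 0.216) and Mx2 in 7 (up to 0.194). Usp18 and Oas1a kept it only without replicate 2 of the E2f8 or replicate 4 of the double knockout, and Mx2 only without the latter. All 3 missed the threshold in a fit of only the groups compared and with no run term. Irf7, the transcription factor that amplifies the interferon response, differed by 0.57 (adjusted p = 0.0928). Off the list, the interferon-stimulated genes Ifi27l2a, Parp12 and Lgals3bp were called rises without overlap. They differed by 0.82, 0.60 and 0.67 (limma adjusted p = 0.0424, 0.0366 and 0.0114). MHC class II and antigen presentation genes, 6 of 9 above 0, had a median of 0.03 and 0 calls.

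**Figure D2:**
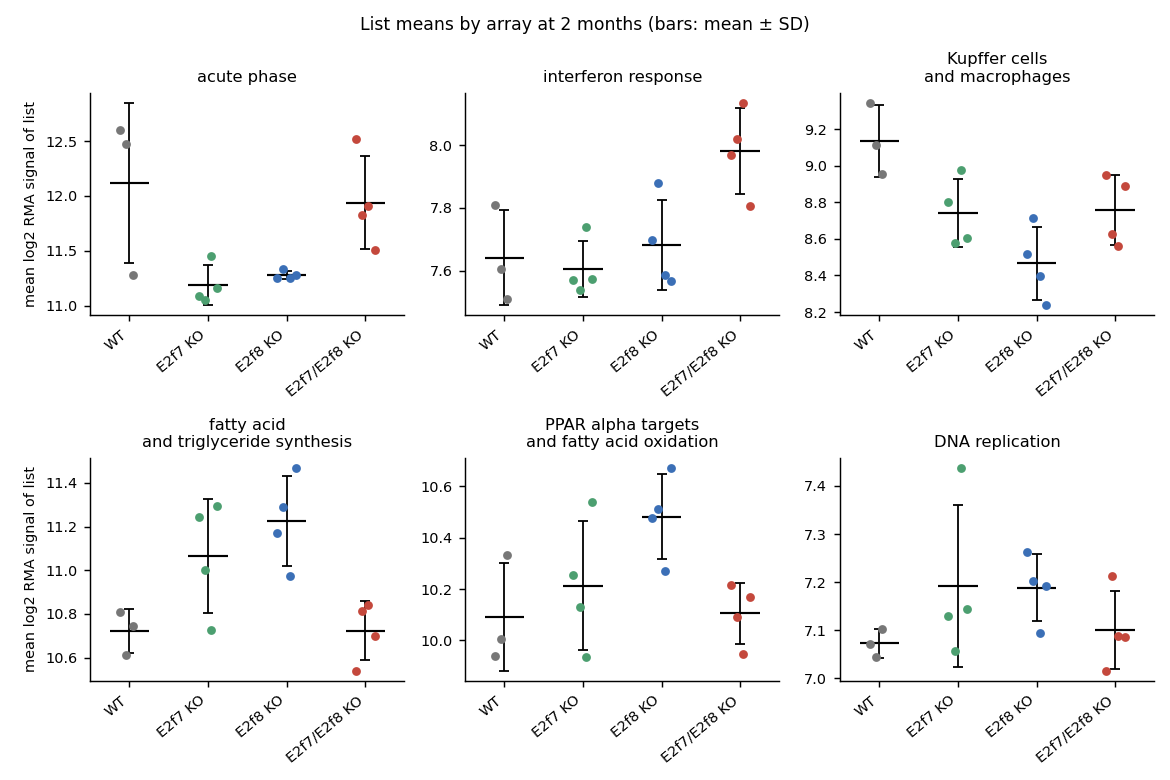
Each point is the mean log2 RMA signal of a gene list in 1 array at 2 months, for wild type (3 arrays of the same normalization run) and the E2f7, E2f8 and E2f7/E2f8 knockouts (4 each); bars are mean ± SD. The double knockout lies above the E2f8 knockout without overlap for acute phase genes (11.50 to 12.52 against 11.25 to 11.33) and below it for fatty acid and triglyceride synthesis (10.54 to 10.84 against 10.97 to 11.47).

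Igfbp1, a secreted binding protein of insulin-like growth factors that rises in fasting, was at 9.04, 9.66, 8.86 and 10.39 in the double knockout against 7.19, 7.07, 8.04 and 5.49. The groups did not overlap, and the difference was 2.54 (SE 0.50, limma adjusted p = 0.0101), a 5.82-fold change. Without replicate 4 of the E2f8 knockout, its lowest array, the difference was 2.06 with an adjusted p of 0.078. Of 19 gluconeogenesis, glycogen and fasting genes 9 were above 0 (median -0.01), and Igfbp1 was the 1 called.

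Junb, an AP-1 transcription factor, was at 9.18, 8.14, 7.74 and 8.08 against 7.08, 7.03, 6.03 and 6.22, a difference of 1.70 (SE 0.35, limma adjusted p = 0.0133). It was the 1 called of 17 immediate early genes (10 above 0, median 0.08), and Myc, the cell growth factor, differed by -1.53 (adjusted p = 0.148). Tnfaip3, the feedback inhibitor of NF-kappa B signalling known as A20, was at 8.41, 7.05, 6.61 and 6.61 against 6.04, 5.66, 5.80 and 5.64, a difference of 1.39 (limma adjusted p = 0.0228). Neither gene's groups overlapped. Junb lost its call without replicate 3 or 4 of the E2f8 knockout or replicate 1 of the double (adjusted p up to 0.0877), and Tnfaip3 without replicates 2, 3 or 4 of the E2f8 knockout or replicate 1 of the double (up to 0.153).

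Pim1, a serine/threonine kinase induced by cytokines through STAT factors, was at 8.95, 8.54, 8.55 and 8.77 in the double knockout against 7.96, 7.76, 7.67 and 7.44. Its groups did not overlap, and the difference of 1.00 (SE 0.17, limma adjusted p = 0.00401) kept an adjusted p between 0.00527 and 0.0281 when single arrays were left out. Nr1d1, the clock repressor REV-ERB alpha, was at 8.60, 8.10, 8.55 and 8.57 against 7.32, 7.17, 7.31 and 7.18, a difference of 1.21 (limma adjusted p = 0.023). It was the 1 called of 22 clock and output genes (14 above 0, median 0.06), and its call held only without replicate 2 of the double knockout among the 8 fits with an array left out (adjusted p from 0.0305 to 0.0998). Time of collection is not in the labels beyond the age.

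Creb3l2, a transcription factor released from the endoplasmic reticulum membrane, rose by 1.11 (SE 0.20, limma adjusted p = 0.00823), with arrays from 8.42 to 9.53 in the double and at 8.03, 8.12, 7.69 and 7.46 in the E2f8 knockout. The arrays did not overlap, and without replicate 4 of the E2f8 knockout the adjusted p was 0.0514. Of 25 genes of the unfolded protein and integrated stress responses, 19 were above 0 (median 0.20) and 0 passed the test, with 10 at an unadjusted p under 0.05; Hspa5, the chaperone BiP, differed by 0.30 (adjusted p = 0.54). Heat shock genes were above 0 in 12 of 14 (median 0.12, 0 called).

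Other rises that the rule names were Sel1l3 (0.96), Etv5 (0.88), an ETS transcription factor, Klhl24 (0.87), an adaptor of a ubiquitin ligase, and Tes (0.56), a focal adhesion protein. Tes had the smallest adjusted p of these, 0.000431 by limma, with 6.47, 6.12, 6.26 and 6.36 in the double knockout and 5.78, 5.64, 5.87 and 5.68 in the E2f8 knockout. The groups of all 4 genes did not overlap. Sel1l3 lost its call in 7 and Etv5 in 6 of the 8 fits with an array left out, with adjusted p up to 0.142 and 0.112; Sel1l3 kept it without replicate 4 of the double knockout, and Etv5 without replicate 1 or 4 of the double. Klhl24 lost its call without replicate 4 of the E2f8 knockout (adjusted p = 0.0514).

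Trhde, which encodes an ectoenzyme that degrades thyrotropin-releasing hormone, was higher in the double knockout. It was at 5.96, 6.32, 5.94 and 6.11 in the double knockout and at 4.33, 4.24, 4.49 and 4.40 in the E2f8 knockout. The groups were separated by more than 1 log2 unit, and the difference of 1.72 (SE 0.19, limma adjusted p = 1.25e-05) had the smallest p in the comparison. In the E2f8 knockout Trhde was dim, with 10.7% of genes below it, and differences are compressed at such levels, so that no fold is given. The E2f7 knockout and wild type, at means of 6.10 and 5.97, were at the double knockout's level. At 3 weeks the double knockout again exceeded the E2f8 knockout, by 2.19 (SE 0.19, limma adjusted p = 4.35e-08).

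Trhde lies 3.61 Mb from E2f7 on chromosome 10. Within 20 Mb on either side of E2f7, 4 of 253 tested genes were called (1.58%, against 0.638% overall): Trhde, Rassf3 at 10.62 Mb, B4galnt1 at 16.38 Mb and Hsd17b6 at 17.2 Mb. Within the same distance of E2f8, 3 of 370 were called (0.811%): Saa1, Saa2 and Ccne1. The window and the genes were picked after their values were seen. B4galnt1, a ganglioside synthase, was at 9.65, 8.65, 9.53 and 8.32 in the double knockout against 8.50, 5.26, 4.68 and 5.40, a difference of 3.08 (limma adjusted p = 0.0119). Replicate 1 of the E2f8 knockout sat with the double knockout, and the other 3 lay far below. At 3 weeks B4galnt1 was at 8.78, 8.73, 8.84 and 9.07 in the double against 7.99, 4.05, 3.88 and 4.58 in the E2f8 knockout. Rassf3, a Ras association domain protein, differed by 0.62 at 2 months and by 0.45 at 3 weeks, and Hsd17b6 by -1.14 and -0.05. Chromosome 6 held 16 of the 116 calls (1.61% of its 992 genes), the largest number of any chromosome. What position has to do with these differences was not tested.

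**Figure D3:**
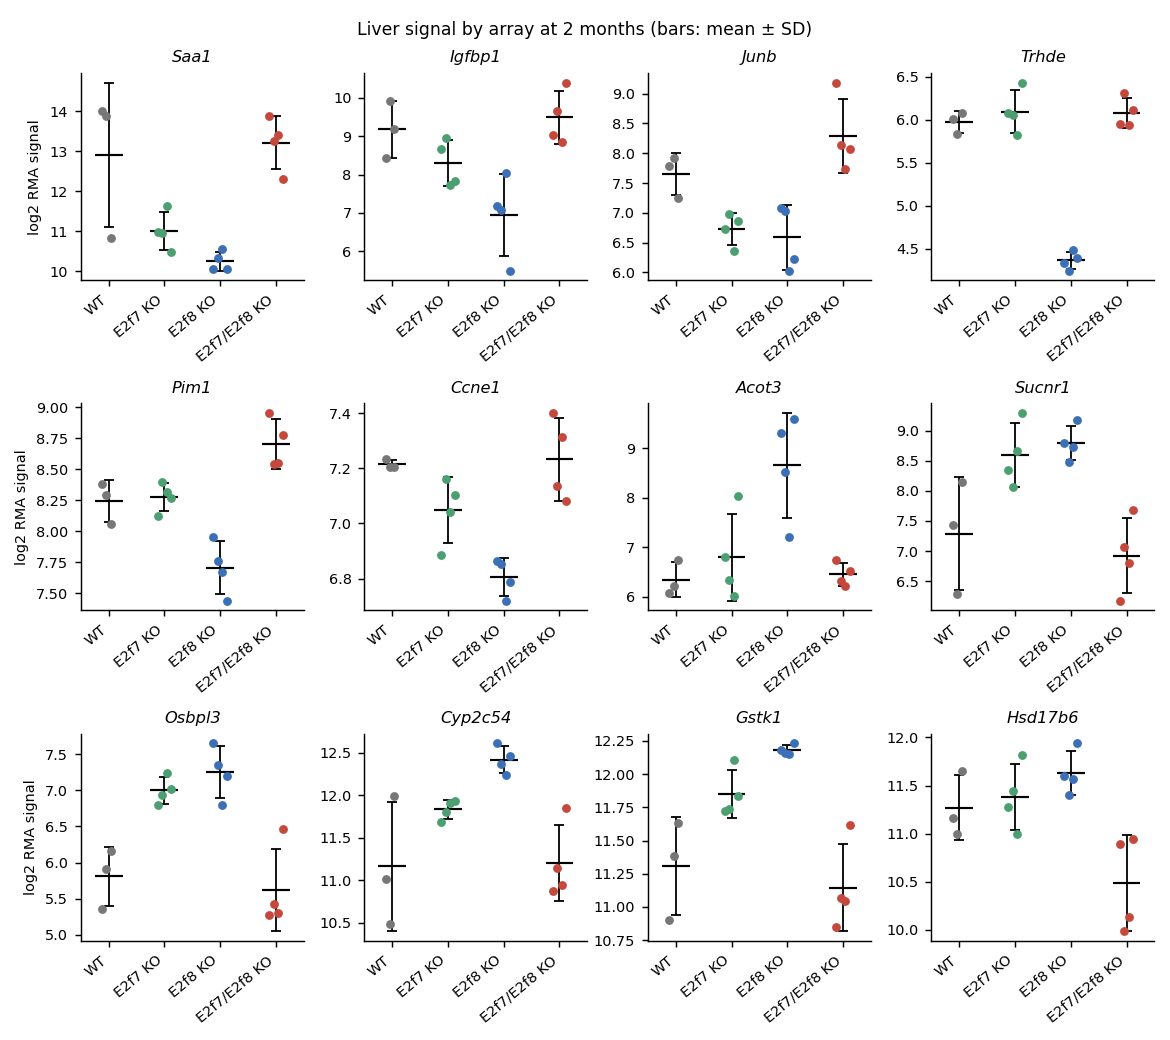
Log2 RMA signal of 12 called genes in each array at 2 months, for wild type (3 arrays), E2f7, E2f8 and E2f7/E2f8 knockouts (4 each); lines and bars are mean ± SD, and each panel has its own axis, which does not start at 0. In all 12 genes the double knockout arrays do not overlap those of the E2f8 knockout; Trhde shows the widest separation relative to its spread, with 5.94 to 6.32 against 4.24 to 4.49.

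Among the falls, Osbpl3, an oxysterol-binding protein family member active at contact sites between membranes, had the smallest p. It was at 5.27, 5.43, 5.31 and 6.47 in the double knockout and at 7.66, 7.35, 6.80 and 7.20 in the E2f8 knockout. The groups did not overlap, although replicate 4 of the double knockout stood more than 1 unit above the rest of its group. The difference was -1.63 (SE 0.21, limma adjusted p = 8.95e-05), a 3.10-fold fall, and a second probe set gave -1.70, whereas another, dim one gave 0.09. Sucnr1, the receptor for succinate, was at 6.17, 7.06, 6.80 and 7.67 against 8.80, 8.48, 8.73 and 9.18 and fell by 1.87 (SE 0.38, limma adjusted p = 0.0127), also without overlap. Sucnr1 lost its call without replicate 4 of the E2f8 knockout or replicate 1 of the double (adjusted p up to 0.0708).

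Several falls were in cytochrome P450 genes. Cyp2c54, a cytochrome P450 of the Cyp2c cluster on chromosome 19, was at 10.88, 11.15, 10.95 and 11.85 in the double knockout against 12.62, 12.37, 12.25 and 12.46, and fell by 1.22 (SE 0.20, limma adjusted p = 0.00401). Cyp2c38 fell by 1.49 (limma adjusted p = 0.00835), Cyp2c37 by 0.83 (adjusted p = 0.0335) and Cyp2c50 by 0.69 (adjusted p = 0.0385). None of the 4 overlapped between the genotypes, but these paralogs are alike in sequence and their probe sets may share signal. Cyp2c38 missed the threshold without replicate 4 of the E2f8 knockout (adjusted p = 0.0514). Cyp2c37 and Cyp2c50 lost their call in 6 of the 8 fits with an array left out (adjusted p up to 0.158 and 0.179) and kept it without replicate 3 of the E2f8 or replicate 4 of the double knockout. With no run term Cyp2c54, Cyp2c37 and Cyp2c50 missed the threshold. Of 30 xenobiotic metabolism genes 8 were above 0 (median -0.18), 3 fell, all of the Cyp2c family, and 0 rose; the nuclear receptor Nr1i3, known as CAR, differed by -0.61 (adjusted p = 0.0577).

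Cyp26a1, the enzyme that clears retinoic acid, was at 7.93, 8.87, 9.57 and 9.16 in the double knockout against 10.64, 10.51, 10.62 and 10.96 and fell by 1.80 (SE 0.42, limma adjusted p = 0.0336). The E2f8 knockout arrays were close together and the double knockout arrays spread over more than 1 unit. Its call was lost in 6 of the 8 fits with an array left out (adjusted p up to 0.178) and kept without replicate 3 or 4 of the double knockout. Hsd17b6, an oxidoreductase of retinol and androgen metabolism, was at 10.89, 9.99, 10.13 and 10.94 against 11.60, 11.40, 11.56 and 11.94 and fell by 1.14 (limma adjusted p = 0.00401). Akr1b8, an aldo-keto reductase, fell by 1.05 (adjusted p = 0.00869) and Gstk1, a peroxisomal and mitochondrial glutathione transferase, by 1.04 (adjusted p = 0.00231). Gstk1 was at 10.85, 11.07, 11.04 and 11.62 in the double knockout and within 12.15 to 12.23 in the E2f8 knockout. Of 19 genes of oxidative stress and glutathione metabolism on the list, 5 were above 0 (median -0.10) and 0 were called; Hmox1, haem oxygenase, differed by 0.82 (adjusted p = 0.0735).

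Fatty acid synthesis genes all lay below 0 and none passed the test. The 24 fatty acid and triglyceride synthesis genes had a median difference of -0.39; limma called 0 of them over all genes, and 12 had an unadjusted p under 0.05. The list mean was 10.54, 10.81, 10.84 and 10.70 in the double knockout and 11.17, 11.29, 10.97 and 11.47 in the E2f8 knockout, without overlap. Fasn, the fatty acid synthase, was at 10.32, 10.98, 11.27 and 10.45 against 11.59, 11.86, 11.31 and 12.05, a difference of -0.95 (SE 0.38, adjusted p = 0.351). Scd1, the stearoyl-CoA desaturase, differed by -0.996 (adjusted p = 0.394), Srebf1, which encodes the lipogenic transcription factor SREBP-1, by -0.63 (adjusted p = 0.254), and Agpat2, an acyltransferase of triglyceride synthesis, by -0.38 (adjusted p = 0.133). In these 4 genes the arrays did not overlap. Mlxipl, the glucose-sensing factor ChREBP, was at means of 12.32 and 12.33.

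Acot3, a peroxisomal acyl-CoA thioesterase, was at 6.73, 6.32, 6.21 and 6.51 in the double knockout against 9.29, 8.52, 7.21 and 9.58. The groups did not overlap, and the E2f8 knockout spread over more than 2 units. The fall of 2.20 (SE 0.47, limma adjusted p = 0.0178) is 4.60-fold, and it lost its call without replicate 1 or 4 of the E2f8 knockout or replicate 1 or 3 of the double (adjusted p up to 0.123). Acaa1b, a peroxisomal thiolase, fell by 0.52 (adjusted p = 0.0138), with 13.36 to 13.66 in the double and 13.76 to 14.09 in the E2f8 knockout, and lost its call without replicate 2 or 4 of the E2f8 knockout or replicate 1 or 3 of the double (up to 0.0898). Of 25 PPAR alpha targets and fatty acid oxidation genes 6 were above 0 (median -0.15), and these 2 were the calls. Cyp4a14, a fatty acid omega-hydroxylase, had a difference of -3.08 that did not pass (adjusted p = 0.133), at 6.32, 5.99, 6.11 and 7.25 against 6.61, 10.34, 9.12 and 11.94, with overlap. The related Acot1 and Acot4, whose sequences are close to Acot3, differed by -1.44 and -1.28 (adjusted p = 0.0557 and 0.0581).

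The remaining named falls were Rcan1 (-1.44), an inhibitor of calcineurin, Gdpd3 (-1.39), a lysophospholipase D, Mme (-1.37), the membrane peptidase neprilysin, and Lratd2 (-1.11). Each had 4 double knockout arrays below all 4 E2f8 knockout arrays, with limma adjusted p of 0.0209, 0.0432, 0.0124 and 0.00559. Lratd2 lost its call without replicate 4 of the E2f8 knockout (adjusted p = 0.0514), Mme also without replicate 1 or 3 of the double (up to 0.0695), Rcan1 without replicate 2 or 4 of the E2f8 knockout or 1 or 4 of the double (up to 0.123), and Gdpd3 without any array except replicate 2 of the double (up to 0.163). Foxa2, a hepatocyte transcription factor, differed by -1.21 and just missed the threshold (adjusted p = 0.0515). Of 19 hepatocyte identity genes 13 were above 0 (median 0.04) and 0 were called.

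Genes with a sex bias in liver were split, and the labels do not give the sex of the mice. On the Y chromosome 0 of 9 tested genes were called, and on the X chromosome 2 of 617 (0.324%). Whether sex differed between the groups was not tested. Of 18 female-biased genes 5 were above 0 (median -0.26) and 2 fell, Acot3 and the monooxygenase Fmo1, the latter by 0.63 (limma adjusted p = 0.0133). Fmo1 lost its call without replicate 4 of the E2f8 knockout or replicate 1 or 3 of the double (adjusted p up to 0.078). Of 14 male-biased genes 10 were above 0 (median 0.16) and 0 were called. Bile acid synthesis and transport genes were above 0 in 9 of 23 (median -0.01); the 1 called was Abcb11, the bile salt export pump, which rose by 0.61 (limma adjusted p = 0.023) with overlapping arrays. Abcb11 kept its call only without replicate 1 or 4 of the double knockout among the 8 fits with an array left out (adjusted p up to 0.157). Cholesterol synthesis genes had a median of 0.06 (12 of 20 above 0), periportal genes 0.02 (7 of 11), pericentral genes -0.05 (7 of 17) and respiratory chain genes -0.05 (8 of 25), each with 0 calls. The same held for hypoxia targets (-0.03, 5 of 18), fibrosis and matrix genes (0.10, 11 of 17) and fetal liver, tumour and progenitor genes (0.01, 9 of 17). Endothelial markers had a median of -0.15 (2 of 8 above 0), and stellate cell, cholangiocyte and adipocyte markers medians of 0.12, 0.01 and -0.06, with 0 called.

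**Figure D4:**
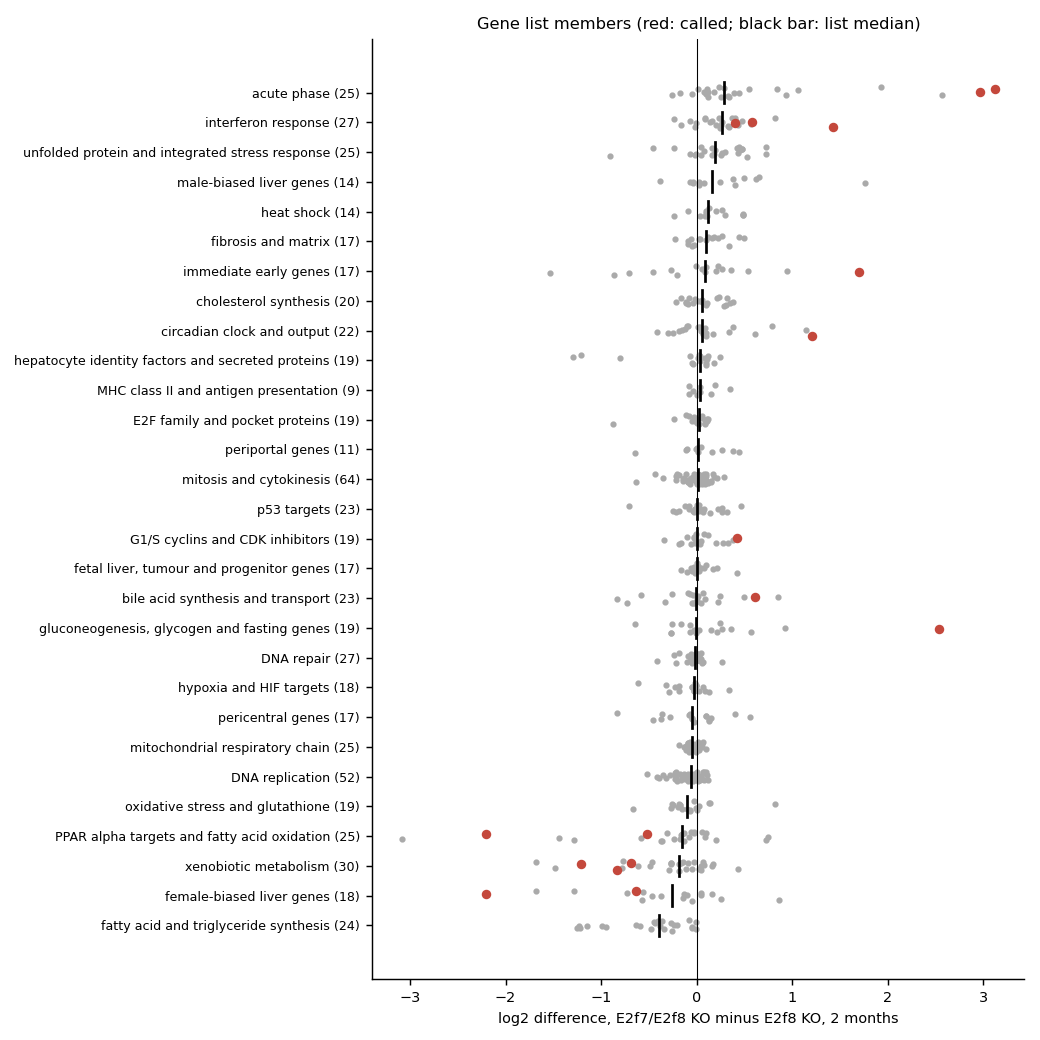
Each point is the log2 difference (E2f7/E2f8 minus E2f8 knockout, 2 months) of 1 measured member of a gene list, with the number of members in brackets; red points passed the limma test over all genes and black bars are list medians, ordered by median. Cell type marker lists are left out. The medians shown run from -0.39 for fatty acid and triglyceride synthesis to 0.29 for acute phase genes, and the DNA replication and mitosis lists hold 0 called members.

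The lists of classical E2F targets gave no calls outside the cyclins. DNA replication genes had a median of -0.06 with 16 of 52 above 0, and 2 at an unadjusted p under 0.05. Mitosis and cytokinesis genes had a median of 0.01 with 37 of 64 above 0 and 2 at an unadjusted p under 0.05. DNA repair genes (10 of 27 above 0, median -0.02), p53 targets (12 of 23, median 0.01) and the E2F family with its pocket proteins (11 of 19, median 0.02) had 0 called members as well. Fancl and Dclre1a, also of DNA repair but not on the list, were called falls without overlap. They differed by -0.40 and -0.80 (limma adjusted p = 0.00936 and 0.029), and Dclre1a had another probe set of opposite sign. Among 19 G1/S cyclins and CDK inhibitors (10 above 0, median 0.01) Ccne1, the cyclin that drives entry into S phase, was called. It was at 7.40, 7.13, 7.31 and 7.08 in the double knockout against 6.87, 6.85, 6.72 and 6.79, without overlap. The difference was 0.43 (SE 0.08, limma adjusted p = 0.00936), a 1.34-fold change, and it lost its call without replicate 4 of the E2f8 knockout or replicate 1 of the double (adjusted p up to 0.0541). Its means in the E2f7 knockout and wild type were 7.05 and 7.21, so that the E2f8 knockout was the low group. Spc25, a kinetochore protein, differed by -0.63 (adjusted p = 0.201) and Brca2, of homologous recombination, by -0.41 (adjusted p = 0.131), both without overlap.

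E2F motifs were counted in the same promoter windows of 300 bases. The motif TTCCCGC was searched on either strand together with its variant TTGGCGC, the variant TTCGCGC and the variant TTGCCGC, and matches may overlap. At least 1 match was in 16.0% of the 14452 tested genes with a window, in 6 of 49 called rises (12.2%), in 4 of 40 called falls (10%), in 27 of 43 DNA replication genes (62.8%) and in 27.8% of mitosis genes. Over all windows of the table the share was 9.57%. The windows of the rises Trhde and Pim1 and of the falls Osbpl3 and Hsd17b6, the 2 with the smallest p in each direction among the 12 largest rises and falls with a window, held no match, nor did that of Ccne1. Of the named called genes with a window, Creb3l2 had 1 match, TTCGCGC on the gene's strand, 148 bases before the start, and it is shown with the leading rise and fall. Creb3l2 was picked for printing after its match was seen. The windows are chr10:114802253-114802552 (minus strand) for Trhde, chr6:50456121-50456420 (minus strand) for Osbpl3 and chr6:37442099-37442398 (minus strand) for Creb3l2, with the match in capitals.
Trhde: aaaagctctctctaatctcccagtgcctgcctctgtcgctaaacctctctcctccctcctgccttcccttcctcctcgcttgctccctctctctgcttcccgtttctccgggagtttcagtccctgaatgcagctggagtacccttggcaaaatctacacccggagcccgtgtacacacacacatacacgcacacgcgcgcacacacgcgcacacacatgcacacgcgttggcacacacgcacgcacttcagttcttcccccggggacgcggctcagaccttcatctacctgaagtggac
Osbpl3: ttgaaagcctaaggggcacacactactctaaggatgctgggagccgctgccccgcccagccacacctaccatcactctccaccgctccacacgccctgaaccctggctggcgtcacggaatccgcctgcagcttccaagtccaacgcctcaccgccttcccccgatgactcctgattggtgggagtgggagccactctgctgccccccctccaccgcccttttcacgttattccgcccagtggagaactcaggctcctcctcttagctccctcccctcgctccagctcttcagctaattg
Creb3l2: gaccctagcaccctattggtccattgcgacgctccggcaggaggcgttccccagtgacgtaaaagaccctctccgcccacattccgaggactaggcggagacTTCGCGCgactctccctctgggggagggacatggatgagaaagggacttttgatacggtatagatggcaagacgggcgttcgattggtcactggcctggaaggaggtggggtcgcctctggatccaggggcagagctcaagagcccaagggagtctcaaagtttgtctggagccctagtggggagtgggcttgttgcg
The absence of a match says only that these letters are not in these windows.

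The loss of E2f7 with E2f8 intact was examined in the same way. The wild-type labels name no Cre, so that Albumin-Cre may differ here along with the E2f7 allele. The 2 cannot be told apart. The E2f7 knockout against wild type, which shares no arrays with the main comparison, gave 1 call at 2 months (0.0055%), Yae1d1 at 0.63 (SE 0.10, limma adjusted p = 0.0111), and 1279 genes at an unadjusted p under 0.05. None of the 116 genes was called there. Of them 93 had the opposite sign (80.2%, against 55.5% of all genes) and 23 the same; the 67 rises had a median of -0.17 and the 49 falls of 0.24 in that comparison. Saa1 was at 10.98, 10.96, 11.64 and 10.48 in the E2f7 knockout, a difference from wild type of -1.89, and Osbpl3 differed by 1.19, Sucnr1 by 1.30 and Gdpd3 by 1.56. Across all genes the differences of the 2 comparisons correlated at r = -0.306, a description with no p.

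The difference between the E2f7 effects without and with E2f8 was tested itself, and 199 genes were called (1.09%), 107 higher and 92 lower without E2f8, with 1964 at an unadjusted p under 0.05. With no term for the normalization run the split was 141 higher and 49 lower. Of the 116 genes, 74 were among them (63.8% of the 116 and 37.2% of the 199). The main comparison is part of this difference and its arrays are used again. Genes called in it are therefore favoured here, and the overlap is no independent support. Osbpl3 had the smallest p, with a difference between effects of -2.83 (SE 0.31, limma adjusted p = 5.54e-06), and Saa1 one of 4.85 (limma adjusted p = 0.00114). Of the acute phase list 10 members were called in this test: Saa1, Saa2, Hp, Hpx, Orm2, Orm3, Lcn2, Itih3, Itih4 and Lbp. The wild-type arrays weigh in it, and those of Saa1 and Lcn2 were split, Lcn2 at 11.71, 11.64 and 6.52. If wild type lacks Albumin-Cre, any effect of Cre is part of this difference as well. The count was 60 without wild-type replicate 1, 64 without replicate 2, 106 without replicate 1 of the double knockout, 127 without replicate 4 of the E2f8 knockout and 132 without replicate 1 of the E2f7 knockout.

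In 101 of the 116 called genes the wild-type mean lay between those of the double and the E2f8 knockout (87.1%, against 35.3% of all genes, whose gaps are mostly smaller). It was nearer the double knockout in 91 (78.4%), against 53.8% of all genes, and nearer the E2f8 knockout in 25. This count was made after the values were seen.

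**Figure D5:**
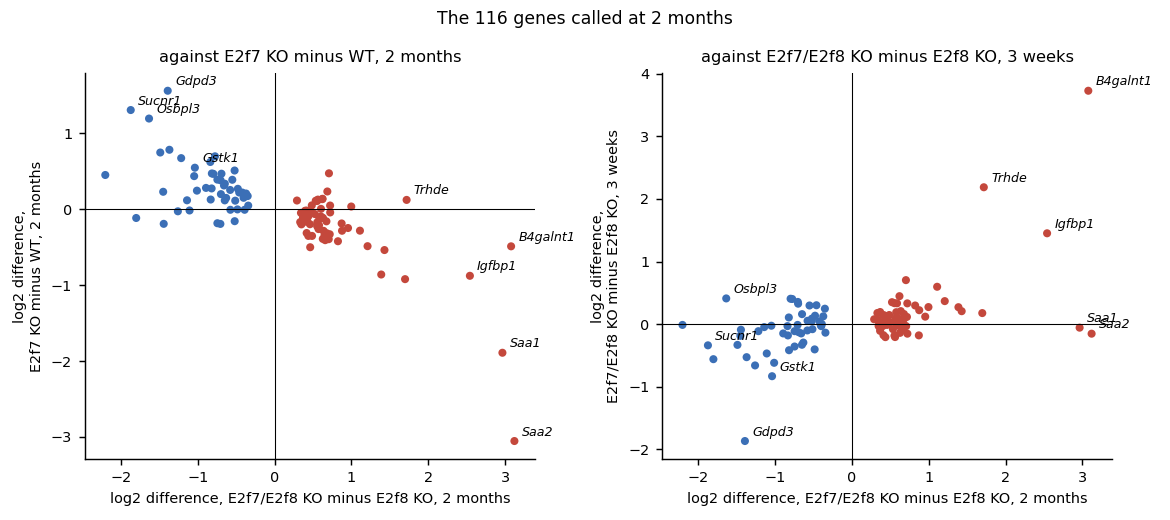
For the 116 genes called at 2 months, the log2 difference between the E2f7/E2f8 and E2f8 knockouts (horizontal axes) is set against that of E2f7 knockout minus wild type at 2 months (left) and of E2f7/E2f8 minus E2f8 knockout at 3 weeks (right); red are rises and blue falls. On the left 93 genes have the opposite sign, and on the right 78 have the same sign, with Saa1 and Saa2 near 0 at 3 weeks (-0.06 and -0.15).

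At 3 weeks the double against the E2f8 knockout gave 126 calls (0.693%), 68 rises and 58 falls, and 2372 genes at an unadjusted p under 0.05. Of the 116 genes called at 2 months, 78 had the same sign at 3 weeks and 38 the opposite (32.8%, against 46.3% of all genes). Adamdec1, B4galnt1, Gdpd3, Gstk1, Tcaf1 and Trhde were called at both ages, all in the same direction (5.17% of the 116 and 4.76% of the 126). Gdpd3 fell by 1.86 at 3 weeks (limma adjusted p = 0.00602) and Gstk1 by 0.83 (limma adjusted p = 0.0116).

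The 2-month and 3-week arrays compared lay in separate value distributions, treated as normalization runs. The change between the ages was therefore tested as the difference of differences. It gave 34 calls (0.187%), 15 higher and 19 lower at 2 months, with 1692 genes at an unadjusted p under 0.05; 13 of them were among the 116 genes (38.2% of the 34 and 11.2% of the 116). The 2-month comparison is part of this difference too, so that genes called in it are favoured here. After quantile normalization of all arrays the split was 9 higher and 29 lower, and with no run term 2 higher and 12 lower. Osbpl3 differed by -1.63 at 2 months and 0.41 at 3 weeks, a change of -2.04 (SE 0.30, limma adjusted p = 0.00195). Tes differed by 0.56 and 0.04, a change of 0.52 (limma adjusted p = 0.0399). Pcdh17, a protocadherin, Gstt2, a glutathione transferase, Plcb1, a phospholipase C, and Gamt, of creatine synthesis, were called for the change but not for the 2-month comparison; they differed by 1.02, 0.79, 0.38 and 0.49 at 3 weeks and by -0.07, -0.51, -0.33 and -0.28 at 2 months. For Saa1 the change was 3.02 and missed the threshold (adjusted p = 0.0676). The count was 17 without replicate 4 of the E2f8 knockout or without replicate 1 of the double knockout at 2 months, 20 without replicate 3 of the E2f8 knockout at 3 weeks and 63 without replicate 4 of the double knockout at 3 weeks.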

How the data were processed

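Total RNA of mouse liver was hybridised to 35 Affymetrix arrays, 1 per sample. The authors deposited log2 signals per probe set, summarised by RMA (robust multi-array averaging), per the submitters' processing notes; no version is named there. Arrays have no read depth, and 4 arrays per group limit the precision. All 35 columns were matched to samples by their titles.

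Of 45101 probe sets, 64 controls, 932 with several gene symbols and 9160 with none were left out; the other 34945 gave 18193 genes, each represented by its probe set of highest mean over the 35 arrays. Of these probe sets 34741 matched the RefSeq gene table (GRCm38.p6) by Entrez identifier, and 18029 genes had a position. The sorted values fell into 3 distributions, treated as normalization runs, which the labels do not describe. Arrays were grouped by single linkage at 0.08; the largest gap within a run was 0.0785 and the smallest between runs 0.0960. Both groups compared lay in 1 run of 15 arrays.

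All 35 arrays entered 1 linear model in limma (version 3.58.1, R 4.3.3) with 9 group means, an added coefficient for arrays of the other 2-month run, and a variance trend on intensity (25 residual degrees of freedom, median prior 5.19). Benjamini-Hochberg adjusted p-values cover all genes, with a threshold of 0.05. The difference of the E2f7 effects and the difference between the ages were contrasts of the same model. Permutation tests used Python 3.11.15 with scipy 1.17.1. On data simulated for the main comparison over 18193 genes, the fit recovered 33, 49, 50 and 50 of 50 genes changed by 0.5, 1, 2 and 4 log2, with 6 false calls. The simulated noise was independent between genes, and each gene had the same spread in all groups. These figures need not hold for the real arrays, where leaving out single arrays moved the number of calls.

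Genes were named by rule: the E2f genes and Gm2788, the 12 largest called rises and falls without overlap between arrays, the member of smallest p and every called member of each list, and, since over 10 genes were called in each of the other contrasts, the 5 of smallest p there. Genes known by clone or predicted names, 5 of the 116, were counted only. Members, the 39 gene lists and the tests were chosen with earlier results of these data known. Named outside the rule, after their values were seen, were B4galnt1, Rassf3, Adamdec1, Tcaf1, Yae1d1, Fancl, Dclre1a, Ifi27l2a, Parp12 and Lgals3bp. So were list members that neither passed the test nor had their list's smallest p. Replicate numbers did not pair the samples: deviations of same-numbered arrays correlated at 0.004, 0.005, 0.032 and -0.1. No pair of arrays shared over 0.0824% of values. Of the called genes 64 had several probe sets, and 13 of these had one of opposite sign.

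Alternatives were fits of only the groups or runs compared, no run term, quantile normalization, a filter that drops the lowest 40 percent of genes by mean signal, averaging a gene's probe sets, no trend, array weights, a replicate block, and leaving out each array. Figures used matplotlib 3.10.9. Promoter sequences are from RefSeq.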

Additional observations from a re-analysis of the deposited data

Results flagged for a closer look

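Of 152 groups of 4 arrays examined, 10 (6.58%) held 1 array far from the other 3, by Dixon's test of the gap to the nearest array over the range of the group; its critical value is set so that chance passes about 1 in 20. In the double knockout these were replicate 2 for Nr1d1 (8.10) and Tdo2 (13.72) and replicate 4 for Osbpl3 (6.47) and Akr1b8 (7.65). In the E2f8 knockout they were replicate 1 for Sel1l3 (7.14), replicate 3 for Spc25 (6.98) and Moxd1 (8.61), and replicate 4 for Abcb11 (11.36), Dcn (10.99) and Prss2 (6.24). All values are log2 signals.

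The log2 difference between double and E2f8 knockout at 2 months departed from the E2f7 effect with E2f8 intact in 28 of the named genes, by limma's test of the difference itself. It was more positive without E2f8 for Saa2 by 6.17, Saa1 by 4.85, Igfbp1 by 3.42, Junb by 2.62, Tnfaip3 by 2.25, Usp18 by 1.97, Nr1d1 by 1.70, Trhde by 1.60, Creb3l2 by 1.39, Etv5 by 1.16, Klhl24 by 1.06, Pim1 by 0.96, Tes by 0.79 and Ccne1 by 0.59. The departure was negative for Sucnr1 (-3.17), Gdpd3 (-2.95), Osbpl3 (-2.83), Cyp2c38 (-2.23), Mme (-2.15), Cyp2c54 (-1.89), Etnppl (-1.64), Gstk1 (-1.58), Akr1b8 (-1.48), Hsd17b6 (-1.25), Cyp2c50 (-1.16), Acaa1b (-1.03), Gstt2 (-0.92) and Fmo1 (-0.78). Adjusted p-values ran from 5.54e-06 for Osbpl3 to 0.0455 for Pim1. These 28 are among 76 named genes, and over all genes the test called 1.09%. Many of the 76 were named for a call in the main comparison, which is part of this difference, or for their p here. Their number is therefore no separate support for a departure. The E2f7 effect with E2f8 intact is taken against wild type, whose labels name no Cre.

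Between the ages the difference changed in 6 named genes. From 3 weeks to 2 months it changed by -2.04 for Osbpl3, -1.30 for Gstt2, -1.09 for Pcdh17, -0.78 for Gamt and -0.71 for Plcb1, and by 0.52 for Tes. What lies behind these differences was not tested. All but Tes were named for their small p in this same test, so that the count follows from the naming rule. Over all genes the test called 34 (0.187%).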

How the results depend on the processing

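The 116 calls became 196 with only the groups compared, 56 with no run term, 75 with the mean of probe sets and 797 with array weights, and 14 to 137 with 1 array left out; the cause was not tested. The replicate block gave 122 calls, 99 of them among the 116. The 199 calls for the difference of the E2f7 effects became 582 with array weights, 169 with the replicate block and 60 to 268 with 1 array left out. The 34 calls between the ages became 14 with no run term, 21 with the mean of probe sets, 144 with array weights, 39 with the replicate block and 17 to 63 with 1 array left out.

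Of 591 values of the 35 called named genes under the alternatives, 440 kept their call and direction, 151 kept the direction only and 0 reversed. The replicate block ended the calls of Sel1l3 (adjusted p = 0.0632), Gdpd3 (0.0612), Cyp2c50 (0.0612) and Abcb11 (0.0531), while Foxa2 (0.0157) and Plcb1 (0.0232) passed with it.

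All reversals were of uncalled genes; Etnppl, at -0.64 in the comparison as reported, was the largest of them in size. With array weights E2f3, E2f5 and E2f7 were at 0.019, 0.002 and -0.058. With the mean of probe sets Etnppl, Ahsa1 and Pcdh17 were at 0.201, -0.163 and 0.004. With 1 array left out E2f3 ran from -0.076 to 0.055, E2f4 from -0.017 to 0.087, E2f5 from -0.055 to 0.031, E2f7 from -0.104 to 0.165, Gm2788 from -0.129 to 0.032, Fabp4 from -0.263 to 0.005 and Pcdh17 from -0.158 to 0.004. Over 17 settings the list median ran from 0.17 to 0.38 for acute phase genes, from 0.23 to 0.35 for interferon genes, and from -0.47 to -0.31 for fatty acid and triglyceride synthesis. RMA signals carry no detection call, and differences between dim genes are compressed.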
